A study of Rattus norvegicus with 3 samples.

Results

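Rat tibialis anterior muscle that had been electroporated with a plasmid for Plin5 was compared, gene by gene, with muscle that had received the empty plasmid. Each side was 1 array, hybridised with RNA pooled from 6 rats, so a difference has no replicate check, and no test, p-value or SD between arrays is given. The comparison used every gene that had a probe set with a single gene symbol, took the probe set with the highest mean where a gene had several, and kept genes whose mean over the 3 arrays of the series was at or above the 25th percentile of gene means (a log2 level of 5.34). This left 10879 of 14506 genes. The limit separated Nell1, just outside at 5.34, from Slc12a3, just inside at 5.35.

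Male Wistar rats were used at 11 weeks of age, having been bought at 8 weeks. All of them ate a diet with 45% of its energy from fat for 3 weeks, and the plasmid (150 µg) was injected and electroporated after 2 weeks of it, so the control muscle had also seen the diet, the injection and the pulses. The Plin5 group received pcDNA3.1-CMV-Plin5, the control group pcDNA3.1 without an insert, and the remaining group, used here only for side-by-side levels, pENTR-CMV-Plin2. Muscle was taken 8 days after electroporation. The CMV promoter is active in most cell types, electroporation reaches a part of the fibres, and which species the cDNA came from is not in the labels. The opposite leg was sham-electroporated and is not analysed here. The comparison asks how the transcripts of a mixed fibre muscle differ when this coat protein is overexpressed under high fat feeding.

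Perilipins are proteins that coat lipid droplets and control the access of lipases to the stored triglyceride. Plin5 is found in tissues that burn much fat, such as heart, slow muscle and brown fat, where it also ties droplets to mitochondria. Plin2 is the more widely expressed coat protein, and Plin1 is that of fat cells.

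Levels are given in the order empty vector, Plin5 and Plin2, and a difference is the log2 level on the Plin5 array minus that on the empty vector array. The Plin5 probe set stood at 7.52, 8.30 and 6.79, a difference of 0.78, so it was highest on the array labelled Plin5. Plin2 stood at 9.99, 10.08 and 10.70, highest on the array labelled Plin2. Plin1 (5.94) and Plin3 (7.10) had equal levels on the 3 arrays, and Plin4 is not analysed here.

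The tissue label fitted its defining genes. Skeletal actin (Acta1) stood at 14.04, 14.04 and 14.02, muscle creatine kinase (Ckm) at 13.71, 13.71 and 13.64, and myoglobin (Mb) at 13.90, 13.93 and 13.77. The heavy chain of the fastest fibres, Myh4, was at 13.58, 13.59 and 13.31. These 4 genes differed by at most 0.04 between the Plin5 and the empty vector array. Markers of other cells were present too. For 31 macrophage markers, there was a mean log2 level of 9.45 on the empty vector array, 8.94 on the Plin5 array and 10.52 on the Plin2 array, and the scavenger receptor Marco and the lymphatic receptor Lyve1 were at a difference of 0. Of the 31, 23 were lower by at least 1.2-fold on the Plin5 array and 1 was higher. In pooled whole muscle, fewer cells of a type and less RNA per cell cannot be told apart.

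Most of the transcriptome had nearly the same level on both arrays, and the genes that stood out were mostly lower with Plin5. The median difference of the 10879 genes was 0, the SD over genes 0.17 and the range from -3.05 to 1.25. The values of 4368 genes were exactly equal on both arrays, 40.2% of all, and 2673 genes were equal on all 3. Separate arrays do not measure levels that match to every digit, so these ties are not read as equal amounts of transcript. Whether the summary of probes by RMA made them was not tested. Equal values made up 70.3% of the fifth of genes with the lowest levels and 17.9% of the fifth with the highest. At least 1.5-fold higher with Plin5 were 24 genes (0.221% of those compared), and at least 1.5-fold lower were 154 (1.42%). At 1.2-fold the counts were 165 higher (1.52%) and 621 lower (5.71%), and at 2-fold 3 and 40. Just inside the 1.5-fold limit were Rrad (0.61) and Ctss (-0.59), and just outside it Angptl4 (0.58) and Laptm5 (-0.58).

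These counts were spread unevenly over the kinds of genes. Of 487 immune genes, 67 were lower by 1.5-fold, which is 13.8% against 1.42% of all genes. Higher were 14, or 2.87% against 0.221% of all genes, so immune genes stood out in both directions. Of 548 metabolic genes, 3 were lower (0.547%) and 2 higher (0.365%). The 9844 genes outside both kinds held 84 lower genes, or 0.853%, and 8 higher ones, or 0.0813%. Of those 84, 18 belonged to a list of cell type, muscle, matrix, signalling or cell biology genes, and the others to none. The median level of the 84 was 8.05 with the empty vector, 7.32 with Plin5 and 9.06 with Plin2. Of the compared arrays, at least 1 was under 5.34 in 2 of the 84 genes and in 1 of the 8.

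**Figure D1:**
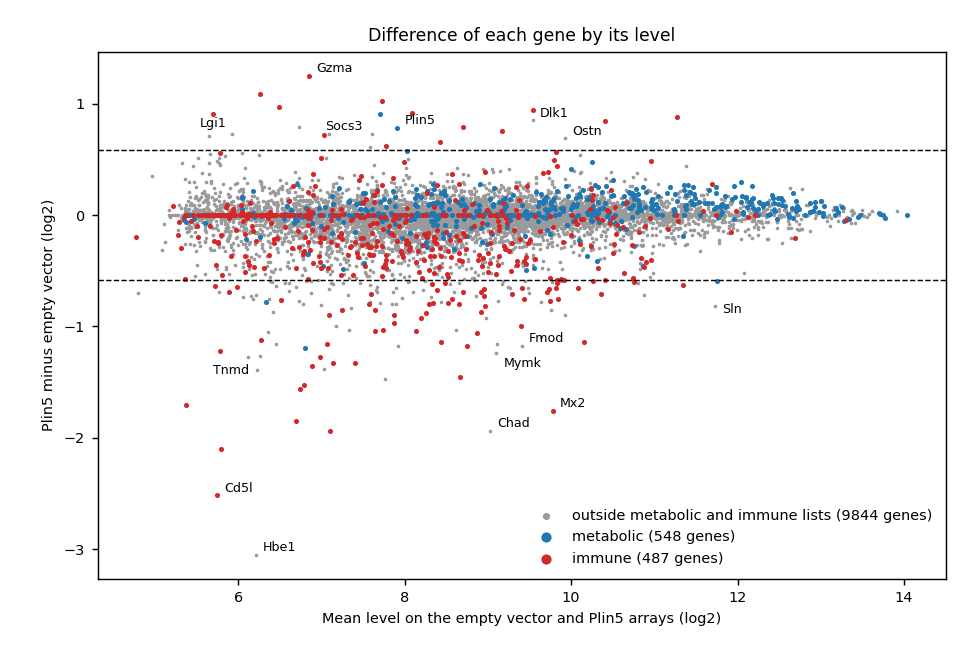
Difference of each of the 10879 genes (Plin5 minus empty vector, log2) against its mean log2 level on those arrays, coloured by kind of gene, with dashed lines at 1.5-fold. Most grey points lie near 0, 154 genes lie under the lower line and 24 above the upper one, and Hbe1 is the lowest point at -3.05.

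Among the genes outside metabolism and immunity that were higher with Plin5, Dlk1 came first. It encodes an imprinted transmembrane relative of the Notch ligands that is made in embryonic and regenerating muscle. It stood at 9.11, 9.96 and 9.80, a difference of 0.85 or 1.80-fold. Meg3, the long noncoding RNA next to Dlk1 in the same imprinted cluster, stood at 8.87, 9.26 and 8.49, a difference of 0.39. Among other compared genes of that neighbourhood, Dio3, the enzyme that inactivates thyroid hormone, stood at 5.48, 5.48 and 5.81. Begain and Wdr25 had a difference of 0. These are exact ties between the compared arrays and are not read as equal amounts of transcript.

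Receptors and signalling brakes followed. Sucnr1, the receptor for extracellular succinate, stood at 6.33, 7.12 and 8.37, a difference of 0.79. Socs3, a feedback inhibitor of cytokine receptors that act through STAT3, stood at 7.24, 7.97 and 8.21, a difference of 0.73. Of 6 SOCS genes compared, Socs1 was also past 1.2-fold (0.42), and Socs2, Socs4, Socs5 and Socs6 lay between -0.05 and 0.10. Rrad, a small GTPase that holds back voltage-gated calcium channels, stood at 7.28, 7.89 and 7.74, a difference of 0.61. For Sucnr1 and Socs3 the Plin2 array was the highest of the 3.

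Several other genes were highest on the Plin5 array and lowest on the Plin2 array. Ostn encodes osteocrin, a peptide secreted by muscle and bone that binds the natriuretic peptide clearance receptor, and it stood at 9.58, 10.27 and 7.40, a difference of 0.69. Lgi1, a secreted leucine-rich repeat protein known from synapses, stood at 5.56, 6.29 and 4.39, a difference of 0.73. All 4 Lgi genes compared had a difference above 0, with Lgi3 at 0.37, Lgi2 at 0.13 and Lgi4 at 0.06. Hey2, a transcriptional repressor that Notch signalling switches on, stood at 5.77, 6.33 and 5.57, a difference of 0.56, and Lypd6b, a membrane-anchored protein of the Ly6 family, at 6.80, 7.31 and 5.33, a difference of 0.51.

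Ankrd2, a stretch-responsive ankyrin repeat protein of slow fibres, stood at 9.83, 10.37 and 9.85, a difference of 0.54. It was higher on the Plin5 array than on both other arrays. Dync2li1, a light intermediate chain of the dynein that works in cilia, differed by 0.55, and Lrrc8e, a subunit of volume-regulated anion channels, by 0.52. Both of these, as well as the olfactory receptor gene Or1f21 (5.30, 6.01 and 5.27, a difference of 0.71), had an empty vector level close to the 5.34 limit. The remaining 3 genes of the leading 15 were 1810009J06Rikl (0.54), the pseudogene Gpr33-ps1 (0.53) and SPATA45 (0.51).

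**Figure D2:**
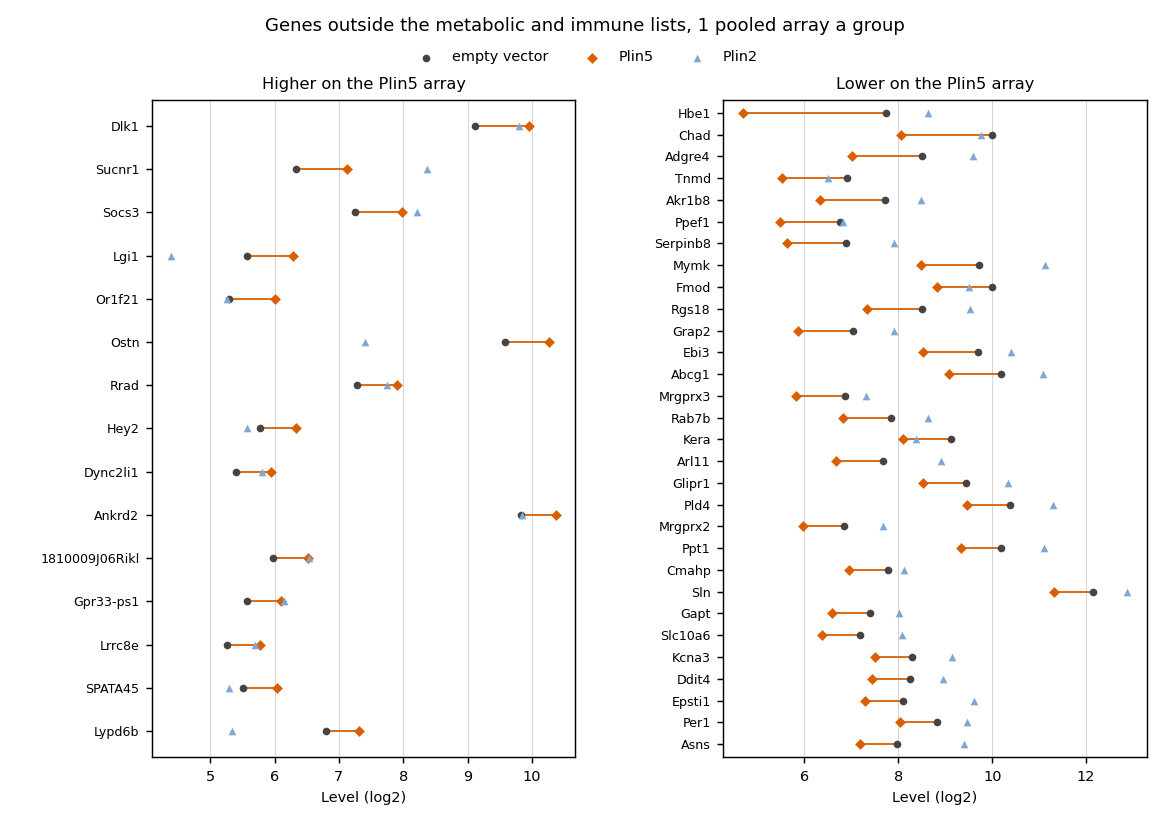
Log2 levels of the 15 genes with the largest upward and the 30 with the largest downward difference outside the metabolic and immune lists, 1 pooled array a group, with a line from the empty vector to the Plin5 level. Ostn and Lgi1 lie lowest on the Plin2 array, and for Chad, Tnmd, Fmod and Kera the Plin2 level lies between the other levels.

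On the lower side, the largest difference of all 10879 genes belonged to Hbe1, an embryonic beta-type globin. It stood at 7.73, 4.68 and 8.63, a difference of -3.05, so the Plin5 array fell under the 5.34 limit for it. The other erythroid genes did not show this size of difference: of 12 erythroid markers measured, Hbe1 was the only one past 1.2-fold, adult beta-globin (Hbb) differed by -0.14, Hbb-b1 by 0.07 and the heme synthesis enzyme Alas2 by -0.14. Globin genes are near-identical copies, so which of them the Hbe1 probe set reads is uncertain.

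Tendon genes made up the next group. Chad encodes chondroadherin, a leucine-rich cartilage and tendon protein that binds collagen and integrin, and stood at 9.99, 8.05 and 9.76, a difference of -1.94 or 3.84-fold. Tnmd (tenomodulin), a membrane protein by which mature tendon cells are recognised, stood at 6.92, 5.52 and 6.51, a difference of -1.39. Fmod (fibromodulin), a proteoglycan that sets collagen fibril width, stood at 9.99, 8.82 and 9.51, and Kera (keratocan), a relative of it, at 9.13, 8.10 and 8.38, differences of -1.17 and -1.03. In each of these 4 genes the empty vector array was the highest and the Plin5 array the lowest.

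Muscle genes among the 30 were Mymk and Sln. Mymk encodes myomaker, the membrane protein that fuses myoblasts, and stood at 9.72, 8.48 and 11.13, a difference of -1.24 or 2.35-fold. Sln encodes sarcolipin, a small peptide that uncouples the calcium pump of the sarcoplasmic reticulum, and stood at 12.14, 11.32 and 12.88, a difference of -0.82. Both were lowest with Plin5 and highest with Plin2.

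A further part of the 30 are genes of blood and immune cells that no immune list held. Adgre4, an adhesion receptor of macrophages, stood at 8.49, 7.02 and 9.58, a difference of -1.47. Rgs18, a brake on G protein signalling in platelets and myeloid cells, stood at 8.50, 7.33 and 9.52, and Grap2, an adaptor of the T cell receptor, at 7.03, 5.87 and 7.91. Ebi3, a subunit of the cytokine interleukin-27, stood at 9.69, 8.54 and 10.41. The differences of these last 3 were -1.17, -1.16 and -1.16. The endosomal nuclease Pld4 (-0.90), the adaptor Gapt (-0.81), the lymphocyte potassium channel Kcna3 (-0.80), the interferon-induced Epsti1 (-0.79) and the small GTPases Rab7b (-1.03) and Arl11 (7.67, 6.67 and 8.91) were also lower. For each gene of this paragraph the Plin2 array was the highest. The macrophage markers were lower too, with a median difference of -0.47, and their part in these results was not tested.

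Lipid and lysosome genes among the 30 were Abcg1, which exports cholesterol to lipoproteins (10.19, 9.09 and 11.08, a difference of -1.10), and Ppt1, a lysosomal enzyme that removes fatty acids from proteins (10.18, 9.33 and 11.10, a difference of -0.86). Akr1b8, an aldo-keto reductase, stood at 7.72, 6.34 and 8.49, a difference of -1.38. Slc10a6, a transporter of sulphated steroids, differed by -0.80.

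Hormone and nutrient responsive genes were Ddit4, Per1 and Asns. Ddit4, an inhibitor of mTORC1 that is induced by hypoxia and glucocorticoids, stood at 8.24, 7.45 and 8.94, a difference of -0.80. Per1, a repressor of the circadian clock, stood at 8.83, 8.05 and 9.46, a difference of -0.78. Asns, the asparagine synthetase that is induced when amino acids are short, stood at 7.97, 7.19 and 9.39, a difference of -0.78. All 3 were lowest with Plin5.

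The rest of the 30 had no common role: the phosphatase Ppef1 (-1.28), the intracellular protease inhibitor Serpinb8 (-1.27), the Mas-related receptors Mrgprx3 (-1.05) and Mrgprx2 (-0.87), Glipr1 (-0.92) and Cmahp (-0.84). The Mrgprx genes belong to a family of close copies, and their separate values are uncertain. Of 7 Mrgpr genes compared, 4 had a difference of 0 and Mrgprf differed by -0.03.

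Of the 46 gene lists outside metabolism and immunity, 23 had a median of exactly 0. So did all genes, of which 40.2% had exactly equal values on both arrays. A list median of 0 is therefore not read as equal amounts of transcript. It was at -0.10 or lower in 5 and at 0.10 or higher in 1. In 24 lists no member differed by 1.5-fold, and in 8 none by 1.2-fold: endothelial markers, fast fibre genes, the dystrophin complex, heat shock proteins, translation factors, ribosome biogenesis, splicing factors and the proteasome. Lists share members, so Sln counts in 4 of them. They were chosen with earlier results of these data known, so their ranks and shares are not independent of the values.

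**Figure D3:**
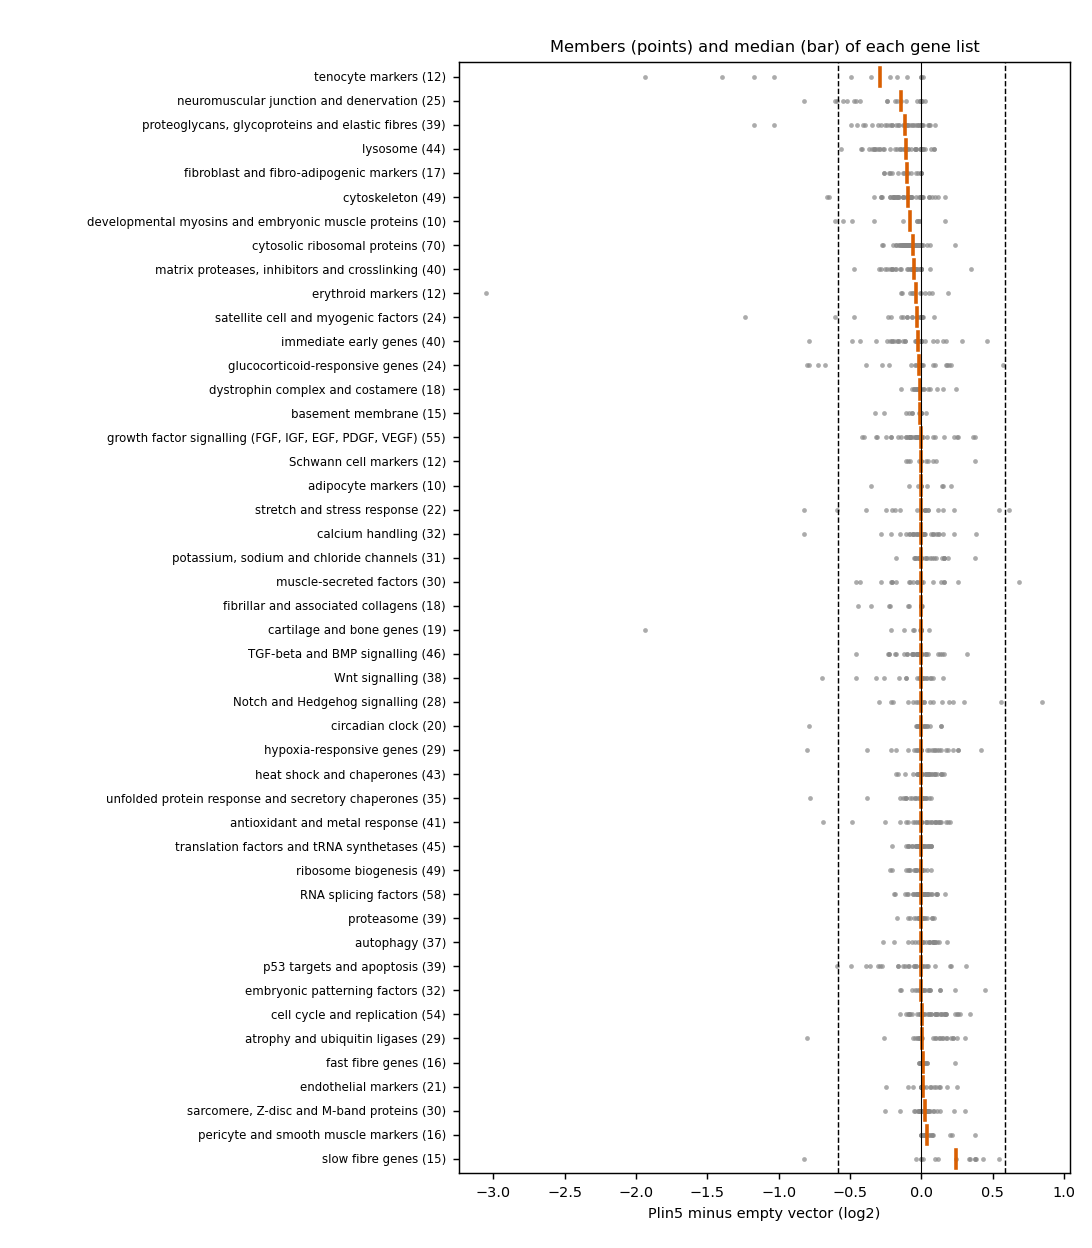
Difference of each member (grey points, Plin5 minus empty vector, log2) and the median (bar) of the 46 gene lists outside metabolism and immunity, with the number of genes in brackets and dashed lines at 1.5-fold. Tenocyte markers have the lowest median at -0.29 and slow fibre genes the highest at 0.24.

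The list of tenocyte markers had the lowest median of the 46, at -0.29. Of its 12 measured genes, 9 were below 0 (34% of all genes were) and 6 were lower by 1.2-fold (against 5.71% of all genes). The 4 described above were lower by 1.5-fold, as 1.42% of all genes were. The other 2 past 1.2-fold were Comp, a pentameric cartilage and tendon protein (7.56, 7.07 and 7.56, a difference of -0.49), and the minor fibrillar collagen Col11a1 (7.23, 6.88 and 7.35, a difference of -0.35). The transcription factor Scx, which specifies tendon cells, differed by -0.10, the joint lubricant Prg4 by -0.17 and Cilp2 by -0.22. Cilp, the member furthest the other way, differed by 0.02. The mean level of the list was 8.24 on the empty vector array, 7.67 on the Plin5 array and 8.15 on the Plin2 array. How much tendon was dissected with each muscle is not in the labels. The rank and shares of this list are not independent of the values, because the lists were chosen with earlier results of these data known.

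Other matrix lists differed less. Of 39 proteoglycans, glycoproteins and elastic fibre genes, 30 were below 0 (34% of all genes were) and 9 lower by 1.2-fold (5.71% of all genes were), with none higher, and the median was -0.12. They share Fmod, Kera, Comp, Cilp and Cilp2 with the tenocyte list. Beyond these, Ccn5, a matricellular growth regulator, stood at 7.64, 7.19 and 8.08, a difference of -0.45. Mfap2 of the elastic microfibrils (-0.41), Prelp of basement membranes and cartilage (-0.39) and Ccn2, connective tissue growth factor (-0.34), were also lower, and Vtn (vitronectin) lay furthest the other way at 0.10. The abundant decorin (Dcn) and biglycan (Bgn) each differed by -0.20.

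Among 18 fibrillar and associated collagens, Col12a1 (8.83, 8.39 and 9.82, a difference of -0.44) and Col11a1 were past 1.2-fold, and 11 had a difference of 0. The main collagen I chains stayed inside 1.2-fold, with Col1a1 at -0.22 and Col1a2 at -0.23. Of 15 basement membrane genes, Fras1 was lower (-0.33) and Lamc3 furthest the other way (0.03). Of 40 matrix proteases, inhibitors and crosslinking enzymes, 29 were below 0 (34% of all genes were). Those past 1.2-fold were the urokinase Plau (-0.47), the lysyl oxidase Loxl2 (-0.30), the inhibitor Timp1 (-0.28) and, upward, the macrophage elastase Mmp12 (0.35). Lower by 1.2-fold were 7.5% of the list, against 5.71% of all genes. Mmp12 had levels of 4.79, 5.14 and 6.43, of which the first and the second were under the 5.34 limit. Of 19 cartilage and bone genes only Chad was past 1.2-fold, and Matn1 lay furthest the other way at 0.05.

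Resident connective tissue cells gave smaller values than tendon cells. Of 17 fibroblast and fibro-adipogenic markers, 13 were below 0 (34% of all genes were) and 4 at 0, with a median of -0.10. The surface peptidase Dpp4 (6.42, 6.15 and 6.44, a difference of -0.26) was the only one past 1.2-fold. The median of these 17 became -0.064 after median centring of the arrays. Of 21 endothelial markers, 12 were above 0 (25.8% of all genes were) and none was past 1.2-fold. Of 16 pericyte and smooth muscle markers 13 were above 0, with the potassium channel Kcnj8 (8.12, 8.50 and 7.92, a difference of 0.38) past 1.2-fold. Of 12 Schwann cell markers, the neuregulin receptor Erbb3 was higher (0.38) and Pmp22 lay furthest the other way (-0.11). Of 10 adipocyte markers, adipsin (Cfd) was lower (-0.35) and Fabp4 lay furthest the other way (0.21). Among erythroid markers the transferrin receptor Tfrc lay furthest the other way at 0.19.

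Part of the genes of the neuromuscular junction and of denervated muscle were lower with Plin5. In an innervated fibre the acetylcholine receptor genes are read mainly under the nerve ending, and when the nerve is silent they are switched on along the fibre together with Myog, Ncam1 and other genes. The list had 25 measured genes, of which 18 were below 0, 5 at 0 and 2 above, with a median of -0.14. Of all genes, 34% were below 0 and 25.8% above. At least 1.2-fold lower were 8, that is 32.0% against 5.71% of all genes, and none was higher by that much.

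The receptor subunits set the pattern out most plainly. The alpha subunit Chrna1, which binds acetylcholine, stood at 11.24, 10.73 and 12.37, a difference of -0.52. The fetal gamma subunit Chrng stood at 8.01, 7.46 and 8.56, and the adult epsilon subunit Chrne at 7.98, 7.53 and 8.28, differences of -0.55 and -0.46. Both the fetal and the adult form of the receptor thus had a lower subunit. Chrnd, the delta subunit, differed by -0.24 and Chrnb1, the beta subunit, by 0.03, the largest upward difference of the list. The kinase Musk, through which the nerve signal agrin clusters the receptors, stood at 8.91, 8.48 and 9.50, a difference of -0.43, while Rapsn, the scaffold that holds the clusters, differed by 0.01. Among the 5 subunits of the muscle receptor, 3 were past 1.2-fold and all 3 were highest with Plin2.

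After the values were seen, the 250 bases before the RefSeq start of each list member were searched for CAGCTG. This is an E-box that myogenic factors such as myogenin can bind. The word reads the same on both strands, so it was counted once. A window was found for 18 of the 25 genes, and 7 of these held the word, which is 38.9%. It was in 12.0% of all 33469 windows of that length and in 13.1% of the 8998 windows of genes compared here. The share of 38.9% describes the genes chosen for the list and is not a result about their difference with Plin5. Of the 8 genes lower by 1.2-fold, 6 had a window and 4 of those held the word. These 4 are shown 5′ to 3′ on the strand of the gene (RefSeq, GRCr8), with the word in capitals. Chrng lies on the plus strand at chr9:95325734-95325983, Chrna1 on the minus strand at chr3:78877354-78877603, Chrne on the minus strand at chr10:55834155-55834404 and Musk on the plus strand at chr5:77853486-77853735.
Chrng: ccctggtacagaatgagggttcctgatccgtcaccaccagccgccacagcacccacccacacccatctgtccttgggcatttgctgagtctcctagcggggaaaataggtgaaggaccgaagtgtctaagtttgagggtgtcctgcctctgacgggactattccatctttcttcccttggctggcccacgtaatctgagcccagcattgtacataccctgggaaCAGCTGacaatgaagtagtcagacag
Chrna1: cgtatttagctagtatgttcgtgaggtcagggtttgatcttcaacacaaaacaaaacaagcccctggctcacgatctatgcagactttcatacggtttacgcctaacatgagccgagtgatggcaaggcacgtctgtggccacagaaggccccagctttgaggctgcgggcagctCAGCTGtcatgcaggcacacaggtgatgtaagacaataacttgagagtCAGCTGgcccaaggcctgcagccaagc
Chrne: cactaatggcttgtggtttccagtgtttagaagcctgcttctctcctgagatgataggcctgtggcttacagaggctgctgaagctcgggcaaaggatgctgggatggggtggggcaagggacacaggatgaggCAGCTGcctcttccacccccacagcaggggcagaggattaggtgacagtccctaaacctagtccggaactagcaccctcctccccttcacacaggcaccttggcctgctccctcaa
Musk: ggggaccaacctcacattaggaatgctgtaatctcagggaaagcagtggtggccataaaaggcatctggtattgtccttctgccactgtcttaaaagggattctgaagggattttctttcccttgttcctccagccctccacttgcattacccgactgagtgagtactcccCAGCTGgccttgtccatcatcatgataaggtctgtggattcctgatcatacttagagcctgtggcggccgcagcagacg

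Counted from the annotated start, the word began at base -26 in Chrng, at -75 and -27 in Chrna1, at -116 in Chrne and at -79 in Musk. Not every lower gene held it: the windows of Myog and Gadd45a did not. It was also present where the level hardly differed, in Prkar1a (-0.14), Etv5 (0.00) and Chrnb1 (0.03). A match is a description of the letters and was not tested as a binding site.

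The other lower genes of the list are shared with myogenesis and stress. Ncam1, the neural cell adhesion molecule that reappears on denervated and regenerating fibres, stood at 11.11, 10.50 and 11.93, a difference of -0.61. Gadd45a, a stress gene that is strongly induced by denervation, stood at 9.74, 9.15 and 10.11, a difference of -0.59. Myog (myogenin) stood at 8.89, 8.42 and 9.88, a difference of -0.47.

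Part of the satellite cell and myogenic genes were lower. Of 24 measured, 14 were below 0, or 58.3% against 34% of all genes. Lower by 1.2-fold were 3, or 12.5% against 5.71% of all genes, namely Mymk, Ncam1 and Myog. The median was -0.03, which became 0.01 after median centring of the arrays. Sdc4 lay furthest the other way at 0.09. Of 10 developmental myosins and embryonic muscle proteins, 9 were below 0 (34% of all genes were) and 4 lower by 1.2-fold (5.71% of all genes were). Ncam1 and Chrng, also in the junction list, were among the 4. The others were the fetal troponin Tnnt2 (9.96, 9.48 and 10.90, a difference of -0.49) and the intermediate filament nestin, Nes (8.39, 8.06 and 9.13, a difference of -0.33). The non-muscle myosin Myh10 lay furthest the other way at 0.17.

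Some tubulin genes were lower as well. Of 49 cytoskeleton genes, 34 were below 0 (34% of all genes were) and 6 lower by 1.2-fold (5.71% of all genes were), with a median of -0.09. The leading members were the beta tubulins Tubb6 (9.81, 9.15 and 10.52, a difference of -0.66) and Tubb2b (7.98, 7.34 and 9.04, a difference of -0.65), followed by the microtubule-associated protein Map1a (-0.33) and Tubb2a (-0.29). Of all 12 alpha and beta tubulin genes compared, a group picked after the values were seen, 10 were below 0 and 2 at 0, and 3 were past 1.2-fold. Tmsb10 lay furthest the other way in the list, at 0.16. The macrophage markers were lower on the same array, and their part in this result was not tested.

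Slow fibre genes went the other way from the junction genes. The median of 15 was 0.24, the highest of the 46 lists. Above 0 were 11 (25.8% of all genes were), and 7 were higher by 1.2-fold, or 46.7% against 1.52% of all genes. The slow and cardiac myosin heavy chain Myh7 stood at 11.17, 11.60 and 9.42, a difference of 0.44, and the slow regulatory light chain Myl2 at 10.29, 10.67 and 8.55, a difference of 0.38. The slow troponin T, Tnnt1, stood at 9.91, 10.29 and 9.13. The other 4 past 1.2-fold were Ankrd2, the Z-disc protein Myoz2 (0.38), the slow troponin C Tnnc1 (0.34) and the LIM protein Lmcd1 (0.33). Myh7, Myl2 and Tnnt1 were highest with Plin5 and lowest with Plin2.

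A member of the slow list that lay far in the opposite direction was Sln, at -0.82. Of 16 fast fibre genes, 9 were above 0 (25.8% of all genes were), none was past 1.2-fold and the median was 0.01. The slow and fast lists lie at high levels (means of 10.52 and 13.18 on the empty vector array), where ties are fewer. The share of 25.8% is not matched to those levels. Of 30 sarcomere, Z-disc and M-band genes, the actin filament nucleator Lmod2 (10.49, 10.79 and 10.02, a difference of 0.31) was past 1.2-fold, and Mybph lay furthest the other way at -0.26. The dystrophin complex list of 18 genes had a median of -0.01.

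**Figure D4:**
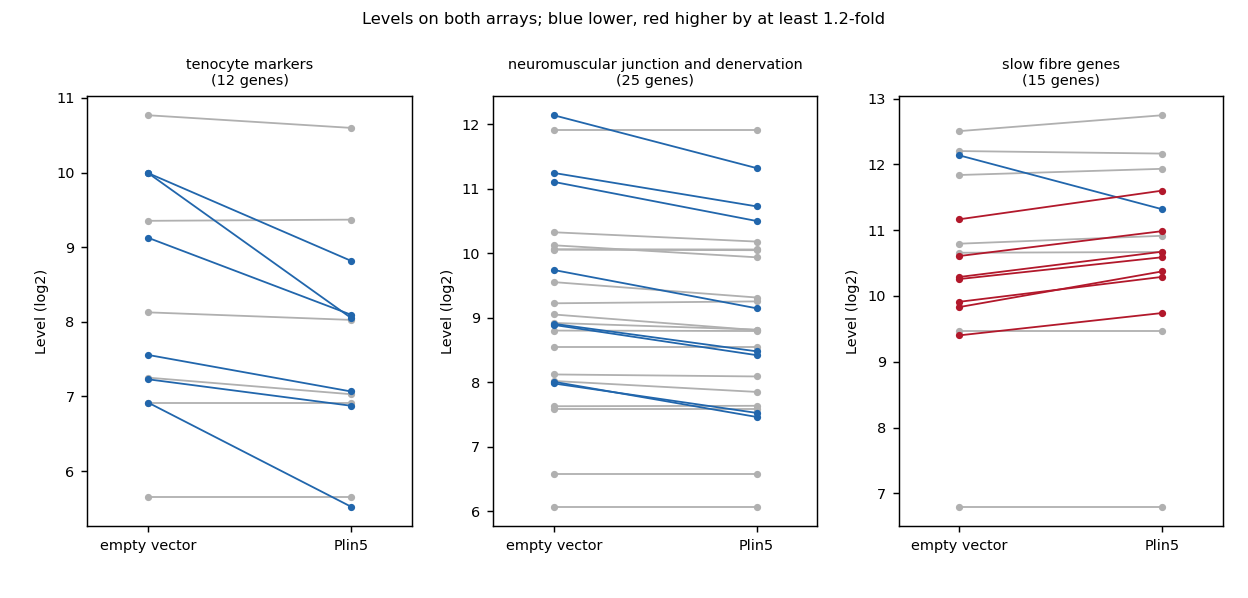
Log2 levels of every measured member of 3 gene lists on the empty vector and Plin5 arrays, 1 pooled array each, in blue where lower and red where higher by at least 1.2-fold. In the tenocyte list 6 of 12 lines are blue, in the neuromuscular list 8 of 25, and in the slow fibre list 7 of 15 are red and 1, Sln, is blue.

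Excitation, calcium and stretch genes were counted at 1.2-fold, by which 5.71% of all genes were lower and 1.52% higher. Of 32 calcium handling genes, Sln and Asph (-0.28) were lower (6.25%). The calcineurin inhibitor Rcan1 (9.92, 10.31 and 9.43, a difference of 0.39) was higher (3.1%). Among 31 potassium, sodium and chloride channel genes, Kcnj8 alone was past 1.2-fold (3.2%), and Fxyd5 lay furthest the other way at -0.18. Of 22 stretch and stress genes, 3 were lower (Sln, Gadd45a and Cdkn1a, 13.6%) and 2 higher (Rrad and Ankrd2, 9.1%). Both shares were above those of all genes, and that list had no common direction.

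Genes of protein breakdown in atrophy held 1 gene past 1.2-fold each way, or 3.4%. Of all genes, 5.71% were lower and 1.52% higher by that much. Of 29, only Ddit4 was lower and Asb11, a muscle ubiquitin ligase subunit, higher (10.31, 10.62 and 8.76, a difference of 0.31). Of 30 muscle-secreted factors, Ostn was higher and Tgfb1 (9.55, 9.10 and 10.31, a difference of -0.45) and Metrnl (-0.28) were lower. The list also held Musk, which is a membrane kinase and not a secreted factor.

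Genes that glucocorticoids induce included several of the larger differences, but not as a whole list. Of 24 measured, 6 were lower by 1.2-fold (5.71% of all genes were) and 4 by 1.5-fold (1.42%), while the median was -0.01. Besides Ddit4 and Per1, the 4 were Errfi1, an inhibitor of the EGF receptor (11.24, 10.52 and 12.14, a difference of -0.72), and Fkbp5, a chaperone of the glucocorticoid receptor (7.99, 7.32 and 8.77, a difference of -0.67). The cell cycle inhibitor Cdkn1a differed by -0.38 and the kinase Sgk1 by -0.27. In the opposite direction, Angptl4, an inhibitor of lipoprotein lipase that fatty acids and glucocorticoids both induce, stood at 7.74, 8.32 and 8.57, a difference of 0.58.

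Per1 was the only 1 of 20 clock genes past 1.2-fold, and Bmal1, which opposes it in the clock, lay furthest the other way at 0.14. Of 40 immediate early genes, Per1, Sik1 (-0.49), Btg1 (-0.43) and Dusp2 (-0.32) were lower and Npas4 (0.46) and Nr4a3 (0.29) higher. The Npas4 level was 5.10, 5.56 and 5.43, with the empty vector array under the 5.34 limit. The median of that list, -0.02, became 0.01 under centring and 0.02 under quantile normalization.

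Of 29 hypoxia-responsive genes, Ddit4 and Ndrg1 (-0.38) were lower and the oxygen sensor Egln1 higher (9.04, 9.46 and 8.14, a difference of 0.42, or 0.20 as the mean of its probe sets). Of 35 genes of the unfolded protein response, Asns and Trib3 (-0.38), both targets of the amino acid response factor Atf4, were lower, and the chaperone Calr lay furthest the other way at 0.07. Of 41 antioxidant genes, the cystine transporter Slc7a11 (6.12, 5.43 and 6.39, a difference of -0.69) and the secreted peroxidase Gpx3 (11.07, 10.59 and 11.56, a difference of -0.49) were lower, and Gstm2 lay furthest the other way at 0.20. Of 39 p53 and apoptosis genes, 7 were lower by 1.2-fold (5.71% of all genes were), led by Gadd45a, Gadd45g (-0.49), Cdkn1a and Casp6 (-0.36), and Birc3 was higher (0.32).

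In each list of developmental signalling only a part of the members was past 1.2-fold. Of all genes, 5.71% were lower and 1.52% higher by that much. Of 28 Notch and Hedgehog genes, Dlk1, Hey2 and the ligand Dhh (0.30) were higher (10.7%). The receptor Notch2 was lower (9.37, 9.08 and 9.90, a difference of -0.29), which is 3.6% of the list. Lower shares were 7.9% for Wnt genes and 2.2% for TGF-beta and BMP genes. Of 38 Wnt genes, the transcription factors Tcf7 (8.01, 7.32 and 8.57, a difference of -0.69) and Lef1 (-0.32) and the secreted Sfrp2 (9.65, 9.19 and 11.17, a difference of -0.46) were lower, and Fzd6 lay furthest the other way at 0.16. Tcf7 and Lef1 are also made by T cells. The joint list of T, natural killer and B cell markers lay at a median of -0.29, its members going both ways. Of its 26 genes, 17 were below 0 and 7 above (34% and 25.8% of all genes were). Lower by 1.2-fold were 14, or 53.8% against 5.71% of all genes. Higher were 3, or 11.5% against 1.52%. The part of those cells was not tested. Of 46 TGF-beta and BMP genes, Tgfb1 was lower and the receptor Bmpr1b higher (0.32), the latter 2.2% of the list.

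Growth factor genes went both ways. Of 55, 4 were lower and 2 higher by 1.2-fold (5.71% and 1.52% of all genes were), with 29 below 0 and 10 above (34% and 25.8% of all genes were). The lymphatic growth factor Vegfd (7.27, 6.86 and 8.73, a difference of -0.41) and Hgf (6.85, 6.45 and 7.65, a difference of -0.40) led the lower ones, and Erbb3 and Fgf1 (8.32, 8.69 and 7.02, a difference of 0.36) were the higher ones. Of 32 embryonic patterning factors, Tbx3 was past 1.2-fold (7.41, 7.86 and 7.22, a difference of 0.45) and Irx3 lay furthest the other way at -0.15.

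Lysosomal genes were lower, in part. Of 44, 31 were below 0 (34% of all genes were), 13 lower by 1.2-fold (29.5% against 5.71% of all genes) and none higher, with a median of -0.11. Grn (progranulin), a secreted protein that lysosomes process, stood at 11.23, 10.67 and 12.21, a difference of -0.56. The hydrolases Gusb (-0.43), Glb1 (-0.42) and Galc (-0.36) and the cathepsins Ctsc (-0.34), Ctsz (-0.33), Ctsa (-0.32), Ctsl (-0.31) and Ctsh (-0.27) were past 1.2-fold as well. The membrane protein Lamp1 and cathepsin D (Ctsd) differed by 0.00, and a subunit of the proton pump, Atp6v1d, lay furthest the other way at 0.09. Macrophages are rich in lysosomes, and their markers were lower on the same array. Their part in this result was not tested.

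Few genes of protein synthesis and turnover were past 1.2-fold. Of 70 cytosolic ribosomal proteins, 56 were below 0 (34% of all genes were, a share not matched to the high level of this list). Only Rpl38 and Rps10, both at -0.27, were past 1.2-fold, or 2.9% against 5.71% of all genes. The median of -0.06 became -0.02 after median centring of the arrays. Rpl15 lay furthest the other way at 0.23. Ribosomal protein genes have many processed copies, so their probe sets may read more than 1 locus. Translation factors (45 genes), ribosome biogenesis (49), splicing factors (58), proteasome (39) and heat shock proteins (43) each had a median of 0 and no member past 1.2-fold. These medians rest in part on exact ties, such as 32 of the 49 ribosome biogenesis genes, and are not read as equal amounts of transcript. Of 37 autophagy genes, Uvrag was lower (-0.27) and Map1lc3a lay furthest the other way at 0.18. Of 54 cell cycle genes, Ccna2 (0.34) and Bub1 (0.27) were higher, Ube2c lay furthest the other way at -0.15, and 28 were above 0 (25.8% of all genes were).

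Gene families taken by their symbol were tallied in the same way. Of 239 solute carriers, 22 were lower and 2 higher by 1.2-fold, against 5.71% and 1.52% of all genes, led by Slc27a3 and Slc10a6 downward and the GABA transporter Slc6a11 (0.30) and Slc16a14 (0.29) upward. Slc6a11 stood under the 5.34 limit on the empty vector array (5.25). Of 71 Rab GTPases, 8 were lower by 1.2-fold, led by Rab7b and Rab39a (-0.35), and Rab20 was higher (0.36). Of 21 integrins, 5 were lower (5.71% of all genes were), led by the leukocyte chains Itgal (8.96, 8.35 and 10.12, a difference of -0.61) and Itgb2 (-0.52). Of 35 protein tyrosine phosphatases, 8 were lower, led by the leukocyte antigen Ptprc (-0.57) and Ptpro (-0.53), and Ptpn3 was higher (0.31). Itgal, Itgb2 and Ptprc are leukocyte genes, macrophage markers were lower on the same array (23 of 31 by 1.2-fold, median -0.47), and their part in these counts was not tested.

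Of all genes, 5.71% were lower and 1.52% higher by 1.2-fold, the shares for the counts that follow. Of 46 orphan G protein-coupled receptors, 6 were lower, led by Gpr18 (-0.61) and Gpr65 (-0.57), and 2 higher, Gpr33-ps1 and Gpr39 (0.32). Of 51 potassium channels, Kcna3 and Kcna2 (-0.40) led the 3 lower ones and Kcnj8 was higher (0.38). Of 124 Tmem genes, Tmem86a (-0.66) and Tmem176a (-0.60) led the 5 lower ones, and Tmem177 (0.32) and Tmem70 (0.27) were higher. Of 22 cytochromes P450, Cyp4b1 (-0.47) and Cyp2s1 (-0.37) were lower and Cyp26b1, which breaks down retinoic acid, higher (0.28).

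In further families the members past 1.2-fold included Adam23 (-0.33) and Adamtsl5 (0.33), Usp18 (-0.61) and Usp48 (-0.27), Lrrc8e and Lrrc2 (0.34), Map3k7cl (-0.28) and, among 143 zinc finger genes, Zfp703 (-0.29). Keratins (23), kinesins (28), Hox genes (15), protocadherins (11) and mitochondrial ribosomal proteins (68) had none. Of the 15 Hox genes 8 were above 0 and none below, and of the mitochondrial ribosomal proteins 41 were above 0 and 14 below. Of all genes, 25.8% were above 0 and 34% below.

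Metabolic and immune genes are given in brief. Metabolic genes past 1.5-fold were Ass1 of the urea cycle (7.25, 8.15 and 8.88, a difference of 0.91) and Plin5 itself, and, downward, the acyl-CoA synthetase Slc27a3 (-1.19) and the apolipoproteins Apoc1 (-0.78) and Apoe (-0.59). Immune genes that were higher were led by the granzyme Gzma (1.25), the chemokine Ccl12 (1.09), Spp1 (1.02), the itaconate enzyme Acod1 (0.97), Cxcl11 (0.95), Fcnb (0.91), Ifng (0.91), Ccl2 (0.88), Cxcl9 (0.84) and Gzmb (0.79). Those that were lower were led by the macrophage protein Cd5l (-2.52), the natural killer receptors Klra5 (-2.10), Ly49i7 (-1.94) and Ly49si1 (-1.71), Jchain (-1.85), the antiviral Mx2 (-1.76), Il7r (-1.56), Defb52 (-1.53), Slamf9 (-1.46) and Cd72 (-1.35). On the Plin5 array Cd5l (4.48), Klra5 (4.74) and Ly49si1 (4.52) lay under the 5.34 limit, as did Ifng (5.24) on the empty vector array, so their exact differences and order are uncertain. Immune genes thus lay at both ends of the distribution. Klra and Ly49 genes are close copies, and their separate values are uncertain.

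Pairs of neighbouring genes that were past 1.5-fold in the same direction were also counted. Of 10856 pairs of compared genes next to each other in the RefSeq order, 15 were past 1.5-fold in the same direction, 14 lower and 1 higher. Of single genes, 1.42% were lower and 0.221% higher by 1.5-fold. The number of pairs these shares would give was not computed, so 15 is not called few or many. Some lower pairs were relatives in a gene family, such as Mx1 with Mx2 and Oas1a with Oas1b. The higher pair was the chemokine pair Ccl2 and Ccl7. Outside metabolism and immunity the lower pairs were Ctse with Rab7b and Rgs1 with Rgs18.

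Where a gene had several probe sets, their differences lay close together. Over 420 such genes past the level limit, the median range between probe sets was 0.04 and the 95th percentile 0.26, so a difference of 1.2-fold lies at the edge of what probe sets of a gene differ by. No gene past 1.5-fold had a further probe set above the limit, and each of those differences rests on 1 probe set.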

How the data were processed

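Total RNA of tibialis anterior muscle, pooled in equal amounts from 6 rats a group (RNA integrity number above 8, 100 ng labelled), was hybridised to 1 array a group, per the labels' protocols. The authors deposited log2 values made with RMA (robust multi-array average), per the submitters' processing notes. RMA includes quantile normalization, which sets every array to 1 distribution of probe intensities and so shows changes relative to the other genes. The log base is not stated, and log2 was taken from the range of the values. The RMA version and the chip description were not given in the sources used here.

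Of 29214 probe sets, 15310 had 1 gene symbol, 323 had several and 13581 were not listed in the platform table. Symbols were checked against RefSeq (GRCr8): 15279 matched and 0 were updated, and 14 list symbols were updated through a synonym. Of 14506 genes, 527 had more than 1 probe set. Differences, counts, medians and list tallies were computed with Python 3.11.15, pandas 2.3.3 and numpy 2.4.6. A check on simulated data covered only the counting of genes past 1.5-fold, with shifts well past that limit. The lists, the choice of probe set and the level limit were not checked that way. With 1 array a group there was no test. Lists needed 5 measured genes.

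Named genes were the perilipins, 4 reference genes, the 15 leading higher and 30 leading lower genes outside the metabolic and immune lists, up to 4 members of each of the 46 lists past 1.2-fold with the largest member the other way, up to 2 each way in each symbol family, and up to 10 metabolic and immune genes each way past 1.5-fold. Provisional symbols (LOC, RGD, ENSR), receptor families Olr and Vom, and small RNAs (Mir, Snor) went into counts without being named. Meg3, Dio3, Begain, Wdr25, the other Socs, Lgi, tubulin and Mrgpr genes, further members of lists and neighbouring genes were named after their values were seen. The 58 lists and the choice of comparison were made with earlier results of these data known. Alternatives changed the fold, the level limit, the scaling and the choice of probe set.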

Additional observations from a re-analysis of the deposited data

Results flagged for a closer look

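Probe sets without a single gene symbol were left out of every comparison above. Of 7293 such probe sets past the level limit, 64 (0.878%) were at least 1.5-fold higher and 105 (1.44%) at least 1.5-fold lower on the Plin5 array. Among named genes these shares were 0.221% and 1.42%. Which transcripts they read is not analysed here.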

How the results depend on the processing

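No paired analysis was possible because each group was 1 pooled array. With 1 array a side, the spread between rats is unknown, and the precision is limited by the number of arrays. The 24 higher and 154 lower genes became 165 and 621 at a fold of 1.2 and 3 and 40 at a fold of 2. The other 16 of 20 recounts stayed within 1.5 times, from 16 to 28 higher and from 111 to 156 lower. Centring each array on its median removed a shift of -0.04 from the Plin5 array and gave 28 and 126. The tenocyte median of -0.29 was -0.49 with the level limit at the median of gene means, -0.57 as a mean over members and -0.42 without genes of equal values, an alternative chosen after seeing the data. Of all list medians, 567 of 579 moved by less than 0.1, and so did 773 of 780 gene differences. Of the 46 lists outside metabolism and immunity, only 5 had a median at -0.1 or lower and 1 at 0.1 or higher. Centring shifts every gene by the same 0.04, and averaging probe sets leaves genes with 1 probe set unchanged. These counts were thus largely fixed by the tolerance and say little about small differences. No list median or gene difference past 0.1 turned its sign, while 15 recomputed list medians and 4 gene differences closer to 0 did. The fibroblast, proteoglycan and lysosome medians moved inside 0.1 under centring and under quantile normalization. Under quantile normalization Hbe1 was -2.80, Cd5l -2.30, Klra5 -1.88, Ly49si1 -1.40, Mmp12 0.56 and Npas4 0.75.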
